A study of Homo sapiens with 6 samples.

Results

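The anaphase-promoting complex (APC/C) is the ubiquitin ligase that marks mitotic proteins for destruction by the proteasome, and its mRNAs were read here in bladder cancer cells with and without STIL knockdown. The 10 genes described were chosen by name. They are the coactivators CDC20 and FZR1, the inhibitor FBXO5, and the subunits ANAPC1, ANAPC4, ANAPC10, ANAPC11, CDC16, CDC23 and CDC27. All 10 were measured, among 15953 genes in all. EJ, the line sequenced, is an established cell line of human bladder cancer, and each of the 2 groups has 3 RNA-seq libraries. The first group, shNC, is EJ transduced with a negative control lentivirus. The second, shSTIL, is EJ transduced with a lentivirus that knocks down STIL. The groups thus share the line and delivery by lentivirus, and whether the vectors differ beyond the hairpin is not stated. The hairpin sequence, the number of clones and whether replicates were separate cultures are not given in the sources used here, so that p-values measure the spread between these libraries, which may be technical. Column headings of the deposited tables name the groups siNC and siSTIL, and libraries were assigned by the sample labels.

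The APC/C drives cells from metaphase into anaphase with CDC20 as its coactivator, by removing securin and the mitotic cyclins. FZR1, whose protein is also called CDH1 and is not E-cadherin, takes over as coactivator in late mitosis and G1, and FBXO5, also called EMI1, blocks the complex during S and G2 phase so that cyclins can build up. STIL, the centriole duplication factor lowered in this study, carries a KEN box through which the APC/C marks it for destruction at the end of mitosis, and Aurora kinase A (AURKA), the partner gene of the study, is a known substrate of the complex with FZR1.

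Reads assigned to genes, recovered from the log2 values of the libraries, totalled 16214769 to 16431240 in the shNC group and 16734468 to 16901633 in the shSTIL group. STIL itself fell to 25.2% of its control level, from a log2 CPM (reads per 1e+06 reads of the library, on the log2 scale) of 6.03 ± 0.06 to 4.04 ± 0.024 (SD, n = 3). At a limma adjusted p under 0.01, the threshold for a differentially expressed gene (DEG), 47.1% of all genes were DEGs, 23.6% lower and 23.5% higher in shSTIL, and 60.3% of all genes had shNC and shSTIL values that did not overlap. Of 14 urothelial and epithelial markers, 12 were in the tables and 5 of these averaged a log2 CPM of 1 or more. The keratins KRT7, KRT8 and KRT18 were abundant. The luminal markers PPARG and FOXA1 were expressed, at a shNC mean log2 CPM of 4.28 and 3.33. GATA3, also a luminal marker, was low, with 6 to 9 reads in shNC and 4 to 8 reads in shSTIL libraries. KRT5, the E-cadherin gene CDH1 and UPK2 lay near the floor of the scale. These basal, epithelial and umbrella cell markers of urothelium were thus absent or nearly so. The uroplakins UPK1A and UPK1B were low but detected, with 28 to 33 and 13 to 20 reads in shNC libraries. In shSTIL libraries they had 19 to 23 and 5 to 11 reads, and UPK1B was a lower DEG. Of the 12, 3 were lower DEGs, KRT8 (log2 change -0.70) among them, and 2 were higher DEGs, KRT7 (0.49) among them, and the shSTIL means of PPARG and FOXA1 were 4.53 and 2.80. Of 8 leukocyte, endothelial and fibroblast markers, 3 were in the tables, with a summed level of 3.55 to 4.66 CPM in shNC and 2.16 to 2.93 CPM in shSTIL libraries. Of 4 mesenchymal markers, VIM (-0.68) and FN1 (-1.19) were lower DEGs, while the other 2 did not pass. The part of these marker shifts in the results below was not tested. In bulk RNA, fewer cells in a given cell cycle phase and less RNA per cell cannot be told apart, and this bears on each cell cycle gene below.

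Of the 10 genes, 6 were DEGs, 4 lower and 2 higher in STIL-knockdown cells, and the same 6 had groups that did not overlap. Among all genes the shares are 47.1% for DEGs, 23.6% for lower and 23.5% for higher DEGs and 60.3% for groups without overlap, so for 10 genes these counts were near the background. All 3 regulators fell (CDC20, FBXO5 and FZR1). Among the 7 subunits CDC27 fell, ANAPC1 and CDC23 rose, and ANAPC4, ANAPC10, ANAPC11 and CDC16 did not pass the threshold. The median log2 fold change was -0.08 over the 10 genes, from -0.63 to 0.32, beside 0.0052 over all genes. The median absolute log2 fold change was 0.27 for the 10 genes and 0.30 for all genes.

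**Figure D1:**
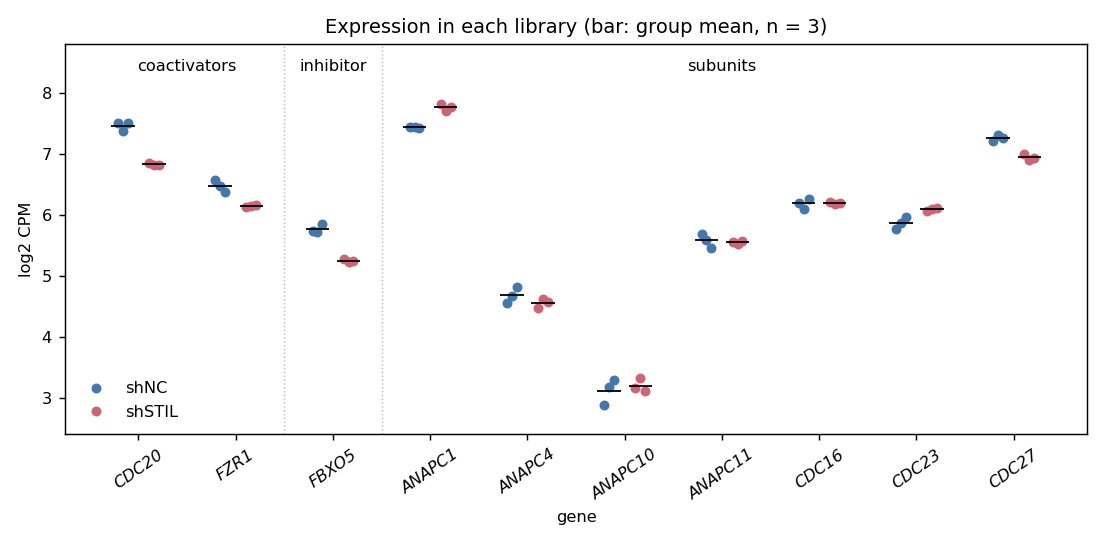
Log2 CPM (vertical axis) of the 10 genes in each of the 3 shNC and 3 shSTIL libraries, with a bar at each group mean. CDC20, FZR1, FBXO5 and CDC27 lie lower in every shSTIL library, ANAPC1 and CDC23 higher, and the groups overlap for the other 4 genes.

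CDC20, the coactivator of metaphase and the target of the spindle checkpoint, showed the largest change of the 10 genes. The gene spans positions 43358955 to 43363203 of chromosome 1 (GRCh38, plus strand). It measured a log2 CPM of 7.50, 7.38 and 7.50 in shNC replicates 1, 2 and 3 and 6.84, 6.82 and 6.82 in shSTIL replicates 1, 2 and 3. The shSTIL libraries were nearly identical to each other, and all lay below every shNC library. CDC20 thus fell by 0.63 on the log2 scale, with a standard error of 0.037 and a limma adjusted p = 9.1e-09, to 64.5% of its level in shNC. These values rest on 2717 to 2901 reads in shNC and 1919 to 1954 reads in shSTIL libraries. For this and every other gene whose groups did not overlap, the two-sided p was 0.1 by exact permutation, which is the smallest value possible with 3 libraries in each group.

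FBXO5, the inhibitor that acts in S and G2 phase, followed CDC20 in the size of its fall. Its locus is chromosome 6, 152970519 to 152983579 (minus strand). The libraries gave a log2 CPM of 5.73, 5.72 and 5.84 in shNC replicates 1, 2 and 3 and 5.28, 5.22 and 5.24 in shSTIL replicates 1, 2 and 3. All shSTIL libraries were lower than all shNC libraries. FBXO5 fell by 0.51 on the log2 scale, with a standard error of 0.047 and a limma adjusted p = 6.5e-07, to 70.0% of its shNC level, from 851 to 907 reads in shNC and 639 to 665 reads in shSTIL libraries.

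FZR1, the coactivator of late mitosis and G1, fell less. Its locus is chromosome 19, 3506273 to 3538330 (plus strand). Measured log2 CPM was 6.57, 6.47 and 6.38 in shNC replicates 1, 2 and 3 and 6.13, 6.14 and 6.16 in shSTIL replicates 1, 2 and 3. The shNC libraries spread more widely than the shSTIL libraries, without reaching them. A log2 change of -0.33 with a standard error of 0.046 and a limma adjusted p = 3.8e-05 left FZR1 at 79.5% of shNC. The call was lost when any shSTIL replicate was left out, with a limma adjusted p of 0.0124 without replicate 1, 0.0118 without replicate 2 and 0.0124 without replicate 3, while the log2 fold change stayed between -0.34 and -0.32 in these fits.

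The 3 regulators were compared with each other within each library, since a ratio of 2 genes in a library does not depend on a scaling factor of that library. The log2 ratio of the CPM of CDC20 to that of FZR1 was 0.93, 0.91 and 1.11 in shNC replicates 1, 2 and 3 and 0.71, 0.68 and 0.66 in shSTIL replicates 1, 2 and 3. Its mean moved from 0.98 ± 0.11 to 0.68 ± 0.023 (SD, n = 3), a difference of -0.30, so CDC20 exceeded FZR1 by less in every shSTIL library than in any shNC library. The log2 ratio of FBXO5 to FZR1 moved from -0.71 ± 0.15 to -0.89 ± 0.044, a difference of -0.18, and that of FBXO5 to CDC20 from -1.70 ± 0.061 to -1.58 ± 0.023, a difference of 0.12 (SD, n = 3). The groups did not overlap for any of the 3 ratios, and exact two-sided permutation p-values were 0.1 for each, before and after adjustment over the 3 ratios, which is the smallest this design allows. The narrowest gap was that of FBXO5 to FZR1, whose lowest shNC value was -0.84 in replicate 1 and whose highest shSTIL value, also in replicate 1, printed as -0.84 at 2 decimals. Without shNC replicate 3, which has the highest value of this ratio, the difference was -0.10. Without shNC replicate 1, the difference for FBXO5 to CDC20 was 0.08.

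Promoter sequence of the 10 genes was examined as a description, without a test. RefSeq promoter windows (GRCh38.p14) were found for all 10 genes, as 18 windows since some genes have several starts, and the 250 bases before each start were searched on both strands for CCAAT (the CCAAT box, bound by NF-Y), TTTGAA and TTCGAA (forms of the cell cycle homology region bound by the MuvB complexes), and GCGGGAA (a core of E2F sites). Of 35116 windows of this length in RefSeq, 32% held CCAAT, 13.3% TTTGAA, 1.19% TTCGAA and 5.52% GCGGGAA, and 4.69% held both CCAAT and TTTGAA. Among the windows of the 10 genes, those with both were a CDC20 window and an FBXO5 window. The stretch from 150 to 31 bases before the start is shown for these windows, 5′ to 3′ on the gene's strand, with matches in capitals (ATTGG and TTCAAA are CCAAT and TTTGAA on the other strand).
CDC20, chr1:43358831-43358950, plus strand: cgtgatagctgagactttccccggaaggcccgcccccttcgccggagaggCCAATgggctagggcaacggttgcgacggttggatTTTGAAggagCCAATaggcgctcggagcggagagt
FBXO5, chr6:152983072-152983191, minus strand: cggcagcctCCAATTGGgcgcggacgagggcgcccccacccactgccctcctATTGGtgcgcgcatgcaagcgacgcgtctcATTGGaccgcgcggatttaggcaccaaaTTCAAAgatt

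In CDC20 the TTTGAA begins 65 bases before the start, between CCAAT boxes that begin at 100 and 55, and a further TTTGAA lies on the other strand at 178. In FBXO5 the TTTGAA lies on the other strand with its first printed base 40 before the start, beside CCAAT matches at 141, 138, 98 and 68, of which those at 141 and 138 overlap. The CDC20 stretch lies upstream of the gene in GENCODE 29, and the FBXO5 stretch lies within the gene but in no exon. This FBXO5 window belongs to the downstream of its 2 RefSeq starts, and the window of the upstream start held none of the 4 motifs. FZR1, which also fell, held TTTGAA at 226 and no CCAAT before its upstream start, and GCGGGAA on the other strand at 12 before its downstream start. ANAPC1 and ANAPC4 held none of the motifs, whereas CDC23, which rose, held 3 CCAAT matches and 1 GCGGGAA. CDC16 and CDC27 each held 1 CCAAT and 1 GCGGGAA. In ANAPC11, CCAAT was found in 3 of its 4 windows, of which a pair overlap and share the match, and GCGGGAA in 2 windows. ANAPC10 held TTTGAA in 1 of its 4 windows. A match of letters is a description of the window and was not tested for function.

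The scaffold of the complex is the platform of ANAPC1, ANAPC4 and ANAPC5, of which ANAPC1 is the largest protein and joins the platform to the arm of TPR (tetratricopeptide repeat) subunits. ANAPC1 rose, ANAPC5 fell and ANAPC4 did not pass the threshold. The ANAPC1 locus is chromosome 2, 111611639 to 111884690 (minus strand). Log2 CPM values were 7.44, 7.44 and 7.42 in shNC replicates 1, 2 and 3 and 7.82, 7.70 and 7.76 in shSTIL replicates 1, 2 and 3. The shNC libraries were nearly identical, and every shSTIL library lay above them. ANAPC1 rose by 0.32 on the log2 scale, with a standard error of 0.035 and a limma adjusted p = 2.8e-06, to 125.2% of its shNC level, from 2730 to 2825 reads in shNC and 3569 to 3851 in shSTIL libraries. ANAPC1 has an unprocessed pseudogene, ANAPC1P1, elsewhere on chromosome 2, and its values are uncertain to the extent that the read estimation split reads between them, which was not tested.

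ANAPC4, on chromosome 4 between 25377213 and 25418498 (plus strand), did not pass the threshold. The 6 log2 CPM values were 4.55, 4.67 and 4.81 in shNC and 4.47, 4.62 and 4.57 in shSTIL replicates 1, 2 and 3, and the groups overlapped. Its log2 change was -0.13 (95% interval -0.29 to 0.03, limma adjusted p = 0.172). ANAPC5, the remaining platform subunit, fell by 0.32 on the log2 scale (limma adjusted p = 2.0e-05).

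The TPR subunits CDC27, CDC16, CDC23 and ANAPC7 form the arm that holds the coactivators. Their mRNAs moved in different directions. CDC27, which binds the carboxy-terminal tail of CDC20 and FZR1, is encoded on chromosome 17 between 47117703 and 47189422 (minus strand). Readings of log2 CPM were 7.21, 7.30 and 7.26 in shNC and 7.00, 6.89 and 6.93 in shSTIL replicates 1, 2 and 3. Every shSTIL library was below every shNC library. CDC27 fell by 0.32 on the log2 scale, with a standard error of 0.038 and a limma adjusted p = 8.8e-06, to 80.3% of its shNC level, from 2377 to 2575 reads in shNC and 2042 to 2190 in shSTIL libraries. Processed pseudogenes of CDC27, CDC20 and ANAPC10 are also annotated in GENCODE 29, were not analysed here, and make the values of these genes uncertain in the same way.

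CDC23, the TPR subunit next to CDC16 in the arm, rose. Its locus is chromosome 5, 138187648 to 138213343 (minus strand). In log2 CPM it measured 5.76, 5.86 and 5.96 in shNC and 6.06, 6.09 and 6.11 in shSTIL replicates 1, 2 and 3. The shSTIL libraries lay above all shNC libraries, with shNC replicate 3 close beneath them. With a standard error of 0.050, CDC23 rose by 0.22 on the log2 scale to 116.6% of shNC (limma adjusted p = 0.00183). CDC23 lost its call in more fits than the other 5 DEGs of the 10 genes. The call was lost without shNC replicate 1 (log2 fold change 0.17, limma adjusted p = 0.0202), without shNC replicate 2 (0.0427) and without shSTIL replicates 1 (0.0401), 2 (0.0502) and 3 (0.0589), and without a mean-variance trend in the fit (limma adjusted p = 0.0298).

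CDC16, the partner of CDC23 in the arm, had nearly the same mean in both groups. Its locus is chromosome 13, 114234887 to 114272723 (plus strand). Per library, the log2 CPM was 6.19, 6.10 and 6.26 in shNC and 6.20, 6.17 and 6.19 in shSTIL replicates 1, 2 and 3, so that the shSTIL libraries lay within the range of the shNC libraries. Its log2 change was 0.0019 (limma adjusted p = 0.98), and changes within the 95% interval of -0.09 to 0.10 were not excluded. ANAPC7, the remaining TPR subunit, fell by 0.43 on the log2 scale (limma adjusted p = 2.9e-06).

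The catalytic module consists of the RING subunit ANAPC11, which binds the ubiquitin-conjugating enzymes, the cullin subunit ANAPC2, and ANAPC10, which helps the coactivators to hold substrates. None of its mRNAs passed the threshold. ANAPC11, on chromosome 17 between 81890790 and 81900991 (plus strand), had a log2 CPM of 5.69, 5.59 and 5.45 in shNC and 5.55, 5.52 and 5.57 in shSTIL replicates 1, 2 and 3. Its groups overlapped, and the log2 change of ANAPC11 was -0.03 (95% interval -0.16 to 0.09, limma adjusted p = 0.644). ANAPC10, on chromosome 4 between 144831908 and 145098541 (minus strand), had a log2 CPM of 2.87, 3.17 and 3.29 in shNC and 3.15, 3.32 and 3.10 in shSTIL replicates 1, 2 and 3. It was the gene with the fewest reads of the 10, 115 to 154 in shNC and 144 to 170 in shSTIL libraries, and its log2 fold change of 0.08 had the widest interval, from -0.18 to 0.35 (limma adjusted p = 0.589). A change of ANAPC10 within that interval was not excluded. ANAPC2 had a log2 change of -0.12 (limma adjusted p = 0.0935), with shSTIL values below all shNC values.

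The 4 small subunits, which stabilise the TPR arm or tune its regulation, all changed, in opposite directions. ANAPC13 rose by 0.75 (limma adjusted p = 1.2e-07) and ANAPC16 by 0.54 (limma adjusted p = 4.6e-08) on the log2 scale. ANAPC15, which helps to release the checkpoint complex, had a log2 change of -0.53 (limma adjusted p = 2.4e-04), and CDC26, the small partner of CDC16, of -0.44 (limma adjusted p = 0.0021). Over the 14 core subunits 5 fell, 4 rose and 5 did not pass the threshold, with a median log2 fold change of -0.08, against 23.6% lower and 23.5% higher DEGs among all genes. Of the 7 core subunits outside the 10 genes, 4 fell, 2 rose and 1 did not pass, with a median of -0.32 beside 0.0052 for all genes, again beside those shares of 23.6% and 23.5%. With so few genes these counts say little about the subunits as a group. The number that fell dropped from 4 to 2 without shNC replicate 2, without shNC replicate 3, without shSTIL replicate 1 or without shSTIL replicate 3. The calls lost were those of ANAPC15 (limma adjusted p = 0.0111 to 0.0188 in these fits) and of CDC26, which was not called in any of the 6 fits that left out a library (0.0141 to 0.0494), nor under quantile normalization (0.0111) or without the mean-variance trend (0.0176).

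**Figure D2:**
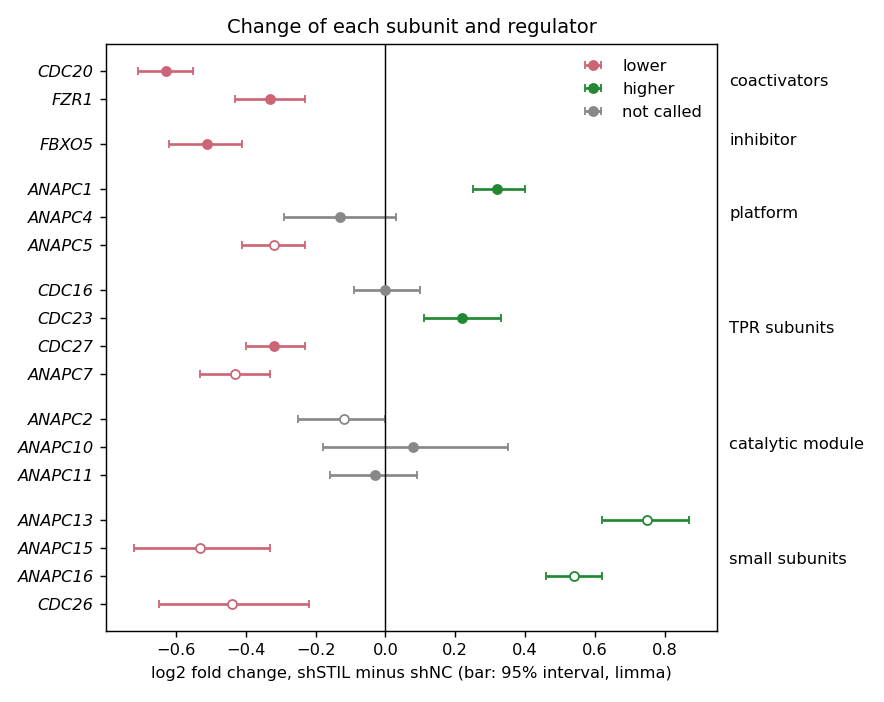
Log2 fold change, shSTIL minus shNC (horizontal axis), of the 17 APC/C genes by module, with 95% intervals from limma; filled points are the 10 genes described and open points the other core subunits, coloured by call. The coactivators and the inhibitor lie left of 0, from -0.63 to -0.33, whereas the 14 core subunits spread from -0.53 to 0.75.

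Levels of different genes were compared as CPM per kilobase of the longest principal coding transcript in GENCODE 29. CDC20 was highest in shNC cells at 99.1 ± 4.56 CPM per kilobase (SD, n = 3), followed by ANAPC11 at 35.2 ± 2.92, CDC16 at 32.9 ± 1.79, FBXO5 at 26.7 ± 1.18 and CDC27 at 26.4 ± 0.840. Below them lay ANAPC1 at 20.9 ± 0.126, CDC23 at 18.5 ± 1.31, FZR1 at 17.1 ± 1.14, ANAPC4 at 9.54 ± 0.880 and ANAPC10 at 5.20 ± 0.766. The libraries of neighbours in this order overlapped for ANAPC11 and CDC16, for FBXO5 and CDC27, and for CDC23 and FZR1, so these pairs could not be ranked. In shSTIL cells CDC20 was still highest at 63.9 ± 0.408 CPM per kilobase, while ANAPC1 at 26.2 ± 1.07 now lay above FBXO5 at 18.7 ± 0.413 and CDC27 at 21.2 ± 0.810. FZR1 stood at 13.6 ± 0.142 CPM per kilobase in shSTIL cells. These levels assume 1 transcript per gene. With the shortest principal transcript in place of the longest, a choice made after seeing the data, the level of ANAPC11 came to 96 CPM per kilobase in shNC and 93.6 in shSTIL cells, that of CDC20 to 105.1 and 67.8, and that of ANAPC10 to 10 and 10.6. The order of CDC20 and ANAPC11 turned in shSTIL cells, and the gap between them depends on which ANAPC11 transcript the cells use. With these shortest transcripts the shNC libraries of CDC20 and ANAPC11 overlapped, so that pair could not be ranked in shNC. The mean of ANAPC10 came to lie above that of ANAPC4 in both groups. In shNC the libraries of ANAPC10 and ANAPC4 overlapped, so the pair could not be ranked there.

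**Figure D3:**
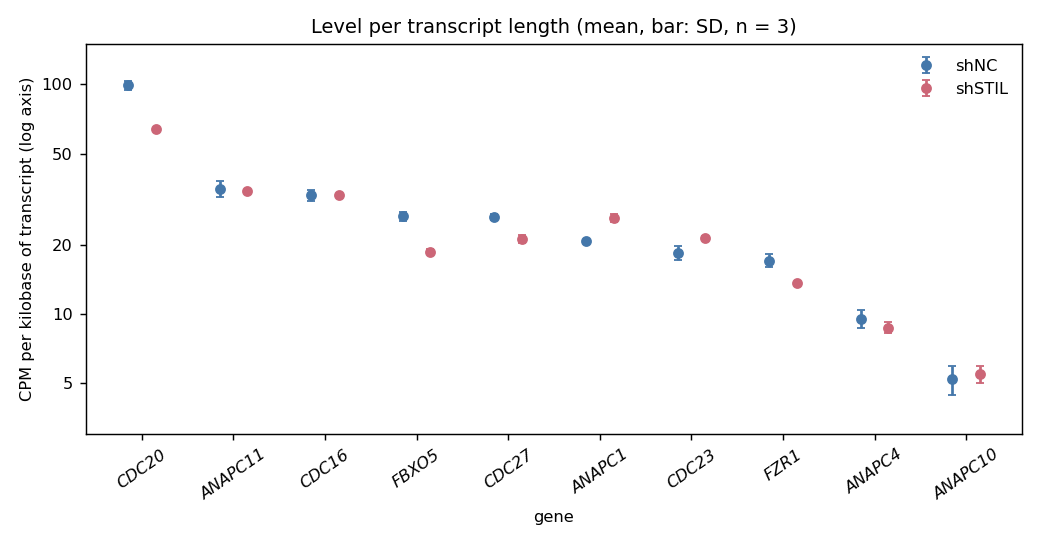
CPM per kilobase of the longest principal transcript (vertical log axis) for the 10 genes, ordered by their shNC mean, with points at group means and bars for the SD of 3 libraries. CDC20 lies highest in both groups (99.1 and 63.9), and ANAPC1 passes FBXO5 and CDC27 in shSTIL.

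Among the enzymes that work with the complex, the changes were small. Of 5 ubiquitin-conjugating enzymes and deubiquitinases, 3 fell, 1 rose and 1 did not pass, with a median log2 fold change of -0.26, where 23.6% of all genes were lower and 23.5% higher DEGs. UBE2C, which starts ubiquitin chains on APC/C substrates, had a log2 change of -0.27 (limma adjusted p = 1.6e-05), and UBE2S, which extends them, of -0.31 (limma adjusted p = 3.2e-05). OTUD7B, a deubiquitinase that trims chains made by the APC/C, rose by 0.40 on the log2 scale (limma adjusted p = 5.8e-05). The number that fell dropped from 3 to 1 without shNC replicate 3 and without each of the shSTIL replicates, with UBE2S at a limma adjusted p = 0.0112 to 0.0155 in these fits.

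Genes of the spindle checkpoint, which holds the complex back, and its regulators fell or did not pass the threshold. The list of 10 genes also holds FBXO43 and genes that take the checkpoint apart or oppose it (TRIP13, MAD2L1BP and CUEDC2). Of the 10, 6 fell and 4 did not pass, with a median log2 fold change of -0.22, against 23.6% lower DEGs among all genes. TRIP13, at -0.34 (limma adjusted p = 2.3e-06), was among the 6 that fell. The checkpoint kinase BUB1 had a log2 change of -0.52 (limma adjusted p = 3.5e-08), and BUB1B, which encodes a subunit of the mitotic checkpoint complex that holds CDC20, of -0.49 (limma adjusted p = 8.8e-07). FBXO43, the relative of FBXO5 that acts in meiosis, had a log2 change of 0.37 (limma adjusted p = 0.0151), with shSTIL values above all shNC values. FBXO43 was called higher in 5 of 17 alternative fits, edgeR (adjusted p = 0.00577) among them, and not in DESeq2 (adjusted p = 0.0565). The other calls came with quantile normalization, without the mean-variance trend, with only genes averaging a log2 CPM of 1 or more, and at an adjusted p under 0.05.

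The mRNAs of APC/C substrates were mostly lower in STIL-knockdown cells. All 5 mitotic substrates fell, with a median log2 fold change of -0.77, against 23.6% lower DEGs among all genes, and 4 of the 5 were called in each fit that left out 1 library. Cyclin A2 (CCNA2) had a log2 change of -0.92 (limma adjusted p = 2.1e-10) and cyclin B2 (CCNB2) of -0.80 (limma adjusted p = 2.7e-09). Of 23 substrates of late mitosis and G1, 19 fell, 1 rose and 3 did not pass, with a median of -0.43. RRM2, the small subunit of ribonucleotide reductase, had the lowest log2 change, -2.09 (limma adjusted p = 1.0e-13), followed by the licensing factor CDC6 with -1.69 (limma adjusted p = 8.9e-12). AURKA, at -0.24 (limma adjusted p = 1.2e-04), stands beside -0.63 for CDC20, -0.51 for FBXO5 and -0.33 for FZR1, and lost its call without shNC replicate 1 or any shSTIL replicate (0.0121 to 0.0149), and without the mean-variance trend (0.0102). Over all 50 genes outside the 10, 37 fell, 4 rose and 9 did not pass, with a median of -0.35 beside 0.0052 for all genes. The shares among all genes were 47.1% for DEGs, 23.6% for lower and 23.5% for higher DEGs. Destruction by the APC/C acts on protein, which these libraries do not measure.

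**Figure D4:**
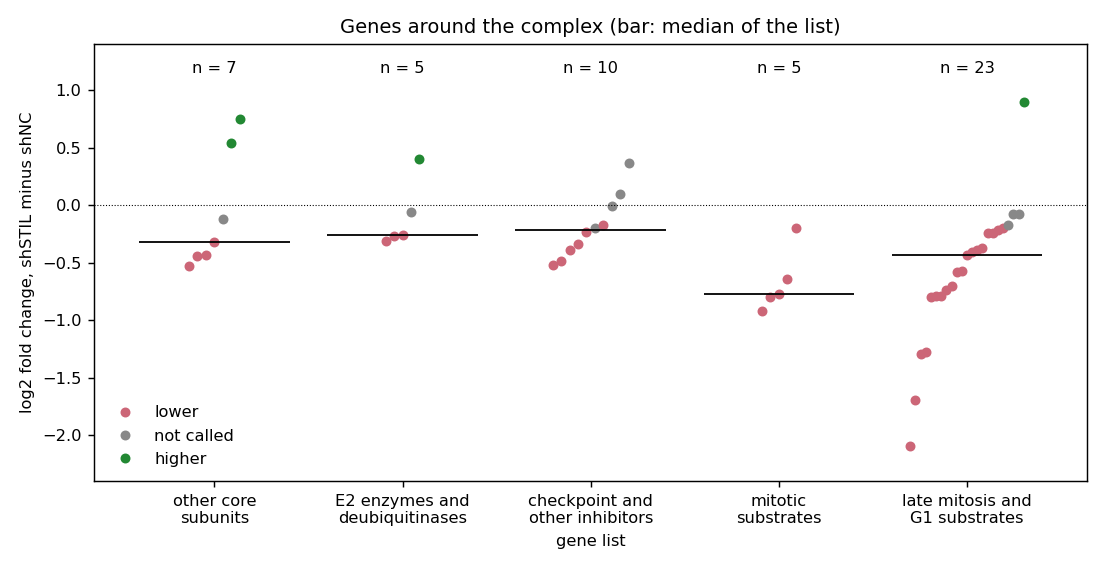
Log2 fold change, shSTIL minus shNC (vertical axis), of each gene in 5 lists around the complex, coloured by call, with a bar at the median of the list. The mitotic substrates have the lowest median (-0.77), and RRM2 at -2.09 is the lowest point of the last list.

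The genes whose values over the 6 libraries, relative to the shNC mean, lay nearest to each regulator were sought among the 9942 genes whose log2 CPM averaged 3 or more. For CDC20 they were LZTS2, VKORC1 and MRPL28, with a root mean square difference of 0.019, 0.025 and 0.027 on the log2 scale. For FZR1 they were CPNE2, SLC39A3 and CNPPD1, with 0.025, 0.027 and 0.029. For FBXO5 they were NACC1, PARP1 and ZDHHC13, with 0.019, 0.019 and 0.022. None of these 9 genes is in the lists used here. Each distance takes in the difference between the groups, and 47.1% of all genes were DEGs. The genes were picked as the closest of 9942, and shared regulation was not tested.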

How the data were processed

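Per the labels and the methods, sequencing was on the BGISEQ-500. The authors cleaned the reads in SOAPnuke, aligned them with Bowtie2 to transcripts, and derived reads per gene in RSEM, which splits reads between transcripts that are alike. The submitters' processing notes name the build hg38, and versions are not given in the sources used here. The deposited estimated counts cover 4 libraries (1 shNC, 3 shSTIL). The deposited log2 CPM, which the authors scaled with edgeR, cover all 6 libraries and were used for every test.

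From these, shSTIL was compared with shNC by limma 3.58.1 (eBayes with trend, R 4.3.3) on all 15953 genes, without a replicate block, with Benjamini-Hochberg adjustment over all genes. DEGs had an adjusted p under 0.01. Reads were recovered from the log2 CPM (prior count 2) and were within 0.0251 reads of the deposited estimated counts. Between 87% and 87.4% of them were whole to within 0.005. Rounded to whole numbers, they were tested with edgeR 4.0.16 and DESeq2 1.42.0 as alternatives. Single genes and ratios were compared by an exact permutation test over 20 labellings. The code of the fits was run on simulated counts with the same dispersion for every gene and few changed genes. That setting is simpler than these data and does not vouch for the calls. Replicates differed by more than sampling noise (chi-square per degree of freedom 1.7 to 3.59), so none was counted as a duplicate.

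The genes and lists were chosen with earlier results of these data known. Named genes are the 10 members, STIL, the 2 largest rises and falls among DEGs in each list, and the 3 nearest genes of each regulator. The remaining core subunits, AURKA, FBXO43, TRIP13, MAD2L1BP, CUEDC2 and the cell type markers were named after their values were seen. Coordinates are from GENCODE 29 (GRCh38), and promoters from RefSeq (GRCh38.p14). Protein sequences were not used here. A gene that the naming rule selects is not reported here.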

Additional observations from a re-analysis of the deposited data

How the results depend on the processing

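CDC20 and FBXO5 stayed lower DEGs in all 17 alternative fits, with log2 fold changes from -0.67 to -0.61 and from -0.53 to -0.48. ANAPC1 and CDC27 lost the call only with limma treat against 1.2-fold (adjusted p = 0.16 and 0.256), where FZR1, CDC23 and AURKA also lost theirs. That test left 3317 DEGs among all genes against 7509, 2 of the 10 genes lower (CDC20 and FBXO5) against 4 and 0 higher against 2, and 20 of the 50 pathway genes lower against 37. By list, the lower genes became 1 for the other core subunits, 0 for the enzymes and 2 for the inhibitors. Its stricter construction gives fewer calls. Without the mean-variance trend 1 member was higher, since CDC23 lost its call. Leaving out 1 library at a time gave 4900 to 5638 DEGs (4900 without shSTIL replicate 3), 3 to 4 members lower and 1 to 2 higher, and 28 to 32 pathway genes lower. These fits have fewer libraries. The sign of genes that were not DEGs turned in places. ANAPC10 ran from -0.04 to 0.17, ANAPC11 from -0.09 to 0.03 and CDC16 from -0.04 to 0.04 over the fits that left out a library, and CDC16 was -0.0070 under median centring. The cause was not tested.

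With edgeR and DESeq2 on recovered reads, with quantile normalization and with other prior counts, 4 members were lower and 2 higher, as in the reported fit. Among all 15953 genes, edgeR called 7831 DEGs, DESeq2 6740 and quantile normalization 7337. The prior counts of 0.5 and 5 gave 7456 and 7450 DEGs. The replicate block gave 6898 DEGs, 4 members lower and 2 higher. Deviations from the group mean correlated at -0.12, -0.055 and -0.11 between libraries numbered alike, and 0 of the 6 libraries correlated best with its own number. These values gave no sign of pairing by number, but cannot show how the cultures were run. The block changed no call of the 10 genes. Of the 10 members, ANAPC10 had the fewest reads (115 to 170 per library) and the widest interval.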
